A study of Mus musculus with 4 samples.

Results

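Amino acid transporter genes were examined by RNA-Seq in IMCD cells, a cultured line from the inner medullary collecting duct of the mouse kidney. The transporters were taken by name alone, without use of their values, as every locus whose symbol belongs to the solute carrier families Slc1, Slc3, Slc6, Slc7, Slc36, Slc38 or Slc43. This gave 60 of the 37981 loci listed. Slc6 holds 18 of them, Slc7 15, Slc38 11, Slc1 7, Slc36 4, Slc43 3 and Slc3 2. These families also hold carriers of taurine, creatine, GABA and monoamines, which were kept. All of the cells descend from C57B/l mice with floxed Tgfbr2, the gene for the type II TGF-β receptor (TβRII), and were immortalized with psv40. TβRII–/– cells had been treated with adeno-Cre and TβRII fl/fl cells were untreated, so that loss of TβRII and exposure to the virus or to Cre cannot be told apart. Each genotype was sequenced after 4 days in serum-deplete medium (serum-starved) and in serum-replete medium. The labels name 1 Cre-treated and 1 untreated population, so a difference seen in both media is not a replicate of the deletion. With 1 library for each of the 4 conditions there was no replicate check and no test, and every difference describes these libraries.

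Read depth could be judged only roughly, from the lowest FPKM values. The labels give 30000000 reads of 50 bp. The lowest FPKM values lay roughly in steps, fitted with an assumed fragment length of 200 bp. These put 1 read on a transcript of 2 kb at 0.0136 FPKM in the TβRII–/– serum-replete library and at 0.0171 to 0.0172 FPKM in the others. The steps also carry the normalization of FPKM, so a smaller step does not by itself show greater depth. Between 11680 and 12172 loci reached 1 FPKM (fragments scaled for transcript length and for library depth) in a library. The targeted gene, Tgfbr2, was lower in TβRII–/– cells but was not absent, at 73.7 FPKM serum-starved and 57.0 FPKM serum-replete, against 143 and 163 FPKM in TβRII fl/fl cells. Of 20 collecting duct markers, 11 reached 1 FPKM in some library, and the summed level of the 20 was 485 FPKM in TβRII–/– against 943 FPKM in TβRII fl/fl serum-starved cells, and 536 FPKM in TβRII–/– against 1029 FPKM in TβRII fl/fl serum-replete cells. Pax8 and Hoxb7 were present in every library. Cdh16 was the highest marker of this list in each, at 143 and 147 FPKM in TβRII–/– cells against 352 and 298 FPKM in TβRII fl/fl cells. Aqp2, the vasopressin-regulated water channel that defines principal cells, was listed at 0 in all 4. Aqp3, Aqp4, Avpr2, Slc14a2, Scnn1b, Fxyd4, Elf5 and Epcam stayed under 1 FPKM in all 4. Krt8 was 0.133 and 0.229 FPKM in TβRII–/– cells against 142 and 251 FPKM in TβRII fl/fl cells. Others went the opposite way, with Krt18 at 36.9 and 89.1 FPKM in TβRII–/– cells against 22.1 and 25.1 FPKM in TβRII fl/fl cells, and Gata3 at 2.62 and 1.25 FPKM in TβRII–/– cells against 0.175 and 0.261 FPKM in TβRII fl/fl cells. The deposited Gata3 locus holds 2 gene symbols. The 10 proximal tubule markers summed to 21.7 FPKM in TβRII–/– against 101 FPKM in TβRII fl/fl serum-starved cells, and to 7.71 FPKM in TβRII–/– against 53.7 FPKM in TβRII fl/fl serum-replete cells, with nearly all of the TβRII fl/fl sums from Aqp1 and Ggt1. Lrp2 went the opposite way, at 20.4 and 5.61 FPKM in TβRII–/– cells against 4.19 and 2.18 FPKM in TβRII fl/fl cells. Fibroblast markers summed to 296 FPKM in TβRII–/– against 164 FPKM in TβRII fl/fl serum-starved cells, and to 388 FPKM in TβRII–/– against 1462 FPKM in TβRII fl/fl serum-replete cells, nearly all from Acta2, smooth muscle actin. Markers of loop and distal tubule, intercalated cells, endothelium and leukocytes each summed to at most 13.4 FPKM in any library. Among them, Umod was 0.246 and 0.717 FPKM in TβRII–/– cells against 13.3 and 5.85 FPKM in TβRII fl/fl cells. Atp6v0d2 was 0.0414 and 0.156 FPKM against 2.43 and 6.13 FPKM. Of the leukocyte markers, Cd68 went the opposite way, at 3.78 and 11.8 FPKM in TβRII–/– cells against 3.18 and 8.79 FPKM in TβRII fl/fl cells. Ptprc, the other leukocyte marker to reach 1 FPKM, was 0.209 and 0.102 FPKM in TβRII–/– cells against 1.34 and 0.422 FPKM in TβRII fl/fl cells. The part that these marker differences take in the transporter differences was not tested, and a smaller number of cells of a type cannot be told apart from less RNA per cell.

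Amino acid transporters move amino acids across the plasma membrane or out of lysosomes. Some are single proteins, and others are pairs in which a heavy chain of Slc3 carries a light chain of Slc7 to the membrane. Sodium-coupled carriers bring amino acids in, and exchangers then trade them for others, so that glutamine taken up by one carrier can pay for leucine or cystine through another. When an amino acid runs short, the kinase Gcn2 and the transcription factor Atf4 raise a set of genes for amino acid synthesis and transport, and the kinase complex mTORC1 reads amino acid supply at the lysosome. In the hypertonic inner medulla, carriers of taurine and betaine also serve to gather organic osmolytes, which balance the osmotic load.

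Atf4 with a C/EBP partner is known to bind a composite element that is often written TGATGNAA. This motif was searched on both strands of RefSeq promoter windows of GRCm38.p6 (the mm10 build), each with 250 bases before and 50 bases after a start site. Windows were at hand for 42 of the 60 transporters, among them 18 of the 26 that reached 1 FPKM. The motif occurred in 3 of the 42 genes (7.14%), against 1219 of 27025 genes with a window (4.51%). Slc7a11 and Slc1a4 are shown because, of the 3, their RNA differed most between media in both genotypes, and both lie on the minus strand. The Slc7a11 window is chr3:50443594-50443723 and the Slc1a4 window is chr11:20332694-20332823. Each runs 5′ to 3′ along the gene, with 110 bases before the start site and 20 after it, and capitals mark the motif on either strand.
Slc7a11: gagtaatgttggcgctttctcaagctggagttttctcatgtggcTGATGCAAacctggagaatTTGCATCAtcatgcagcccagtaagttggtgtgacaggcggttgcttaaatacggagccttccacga
Slc1a4: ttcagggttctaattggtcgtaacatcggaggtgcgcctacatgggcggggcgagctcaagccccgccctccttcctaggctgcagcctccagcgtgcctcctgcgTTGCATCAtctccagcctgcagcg
Slc7a11 held the motif on its own strand at position −66 and on the opposite strand at position −47, counted from the start site. A pair of motifs in one window was found in 23 of 32851 windows (0.0700%), of which 2 are windows of transporters, this one and one of Slc7a7. Slc1a4 held it once, on the opposite strand at position −4. The remaining gene, Slc7a7, held it in windows that lie outside its deposited locus, and no sequence is shown for it. A match in these letters is a description and does not show a bound site.

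Of the 60 transporters, 26 reached 1 FPKM in at least 1 library, 17 reached it in all 4, and 10 reached 10 FPKM in all 4. The summed level of all members was 1103 FPKM in TβRII–/– against 927 FPKM in TβRII fl/fl serum-starved cells, and 556 FPKM in TβRII–/– against 657 FPKM in TβRII fl/fl serum-replete cells. FPKM was normalized separately for each medium, which holds for every level set across media here. The 10 highest members took between 88.8% and 92.0% of this sum in each library, and the 3 highest between 39.4% and 46.7%. The heavy chain Slc3a2 and the glutamine carrier Slc38a2 were among the 3 highest in every library. The taurine carrier Slc6a6, the leucine exchanger Slc7a5, the glutamine exchanger Slc1a5, the creatine carrier Slc6a8, the arginine carrier Slc7a1 and Slc38a10 were among the 10 highest in every library.

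**Figure D1:**
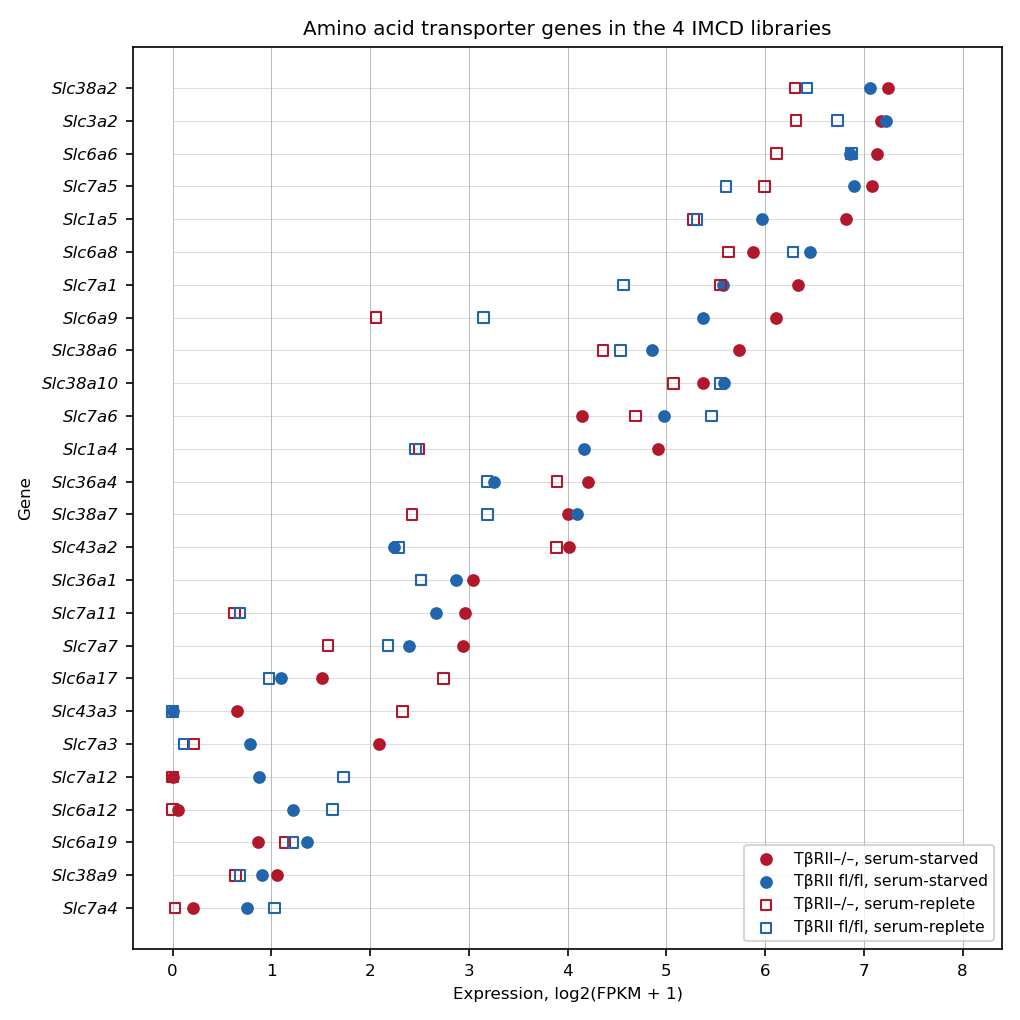
Level of the 26 transporter genes that reached 1 FPKM in at least 1 library. The horizontal axis is log2(FPKM + 1), rows are genes ordered by their highest level, filled circles are serum-starved and open squares are serum-replete libraries, in red for TβRII–/– and blue for TβRII fl/fl cells. Each point is 1 library. Slc6a9 has the widest gap between media, with 68.2 FPKM in TβRII–/– against 40.4 FPKM in TβRII fl/fl serum-starved cells and 3.16 FPKM in TβRII–/– against 7.85 FPKM in TβRII fl/fl serum-replete cells.

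The other 34 members stayed under 1 FPKM in every library, and 9 of them were listed at 0 in all 4. Those at 0 included the GABA carrier Slc6a11, the serotonin carrier Slc6a4, Slc6a15, Slc6a16, Slc7a10, a serine exchanger of brain, Slc7a13, Slc36a3 and Slc38a11. The other 25 were above 0 in at least 1 library. In Slc1 they were the glutamate carriers Slc1a1, Slc1a2, Slc1a3, Slc1a6 and Slc1a7, of which Slc1a1 was highest, at 0.0149 FPKM in TβRII–/– against 0.323 FPKM in TβRII fl/fl serum-starved cells, and listed at 0 in TβRII–/– against 0.859 FPKM in TβRII fl/fl serum-replete cells. In Slc6 they were Slc6a2, Slc6a3, Slc6a5, Slc6a7, Slc6a13, Slc6a14 and Slc6a18, and the highest of their values was 0.446 FPKM, of Slc6a18, an apical carrier of the proximal tubule. The cystine pair of the proximal tubule, Slc3a1 and Slc7a9, reached at most 0.322 and 0.0175 FPKM. The remaining ones were Slc7a2, Slc7a8, Slc7a14, Slc7a15, Slc36a2, Slc38a1, Slc38a3, Slc38a4, Slc38a5, Slc38a8 and Slc43a1, none above 0.369 FPKM. They include Slc7a8, the other leucine exchanger of Slc3a2, and Slc38a3, which takes up glutamine in the proximal tubule. Slc38a1, a close relative of Slc38a2, was 0.0211 and 0.0267 FPKM in TβRII–/– cells, against 0.234 and 0.236 FPKM in TβRII fl/fl cells, and Slc7a2, a carrier of arginine, was at most 0.00333 FPKM in TβRII–/– cells, against 0.185 and 0.369 FPKM in TβRII fl/fl cells. Levels this low rest on few reads.

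Transporters were then compared between TβRII–/– and TβRII fl/fl cells within each medium. Slc43a2, a facilitative carrier of branched-chain amino acids and phenylalanine, stood higher in TβRII–/– cells in both media, and Slc6a12, the betaine carrier, was lower in both. After starvation Slc36a4, Slc38a6, the glutamine exchanger Slc1a5, the arginine carrier Slc7a1, Slc1a4 and the glycine carrier Slc6a9 stood higher in TβRII–/– cells. Each of these differences was under 2-fold on FPKM + 1. In all, 16 of 23 transporters had a positive ratio after starvation, against 52.1% of all loci, and 8 of 23 with serum, against 47.9%. The measure was the log2 ratio of FPKM + 1 over loci that reached 1 FPKM in either genotype in that medium. Adding 1 understates changes of low genes. A ratio of 2-fold or more in size was a call. In each medium 23 transporters could be compared, 20 of them in both. After serum starvation 2 of 23 were called higher in TβRII–/– cells (8.70%, against 8.02% of all 12687 loci compared) and 1 was called lower (4.35%, against 6.64%). In serum-replete medium 3 of 23 were called higher (13.0%, against 7.0% of 12635 loci) and 4 were called lower (17.4%, against 11.1%). In either direction this is 3 of 23 (13.0%, against 14.7%) serum-starved and 7 of 23 (30.4%, against 18.1%) serum-replete. The serum-starved shares are near those of all loci, and the serum-replete shares are above them on 7 members, of which 3 have a library listed at 0. The median log2 ratio of the members was 0.27 serum-starved and −0.18 serum-replete, against 0.028 and −0.029 over all loci. Of the 20 members compared in both media, 7 had a positive ratio in both and 7 had a negative ratio in both. Another 6 were positive serum-starved and negative serum-replete, and 0 were the reverse. The same split was not computed over all loci.

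**Figure D2:**
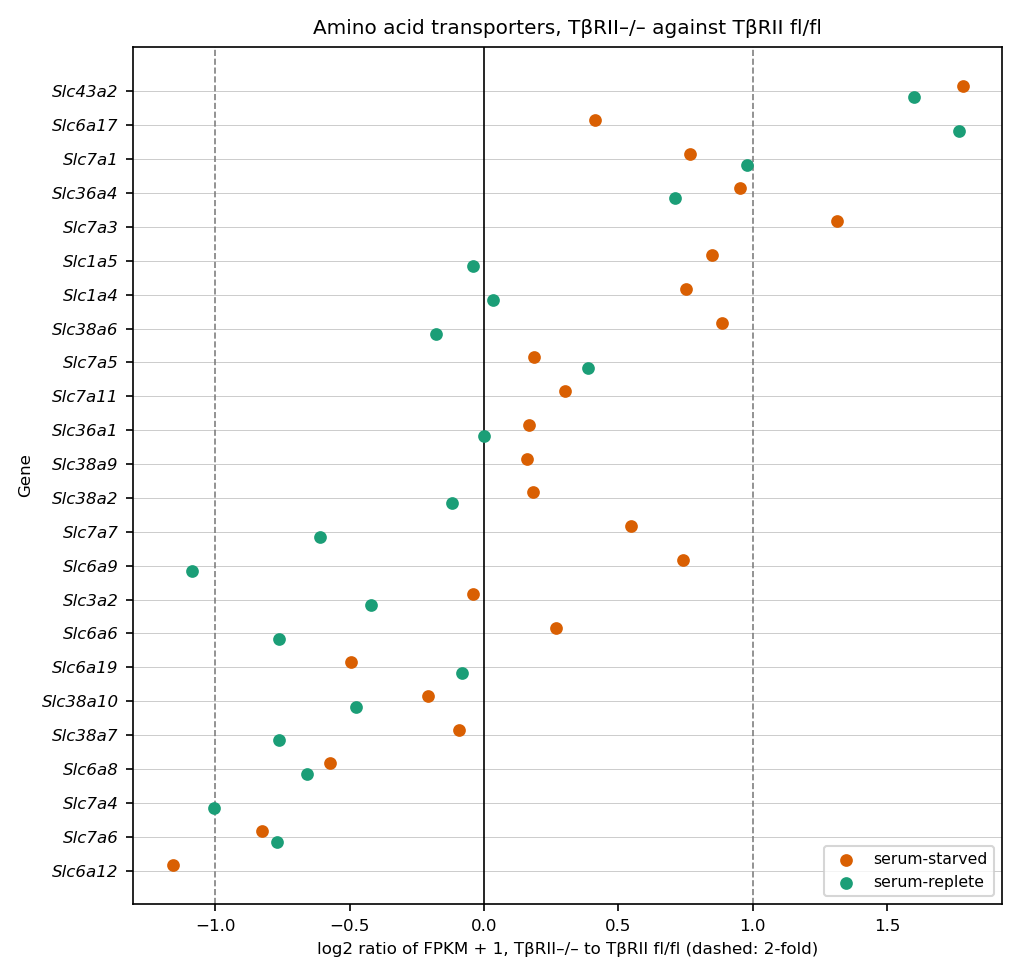
Genotype ratio of each transporter in both media. The horizontal axis is the genotype ratio, TβRII–/– to TβRII fl/fl cells, of FPKM + 1 on the log2 scale, each point compares 1 library with 1 library in serum-starved (orange) or serum-replete (green) medium, and dashed lines mark 2-fold. Genes under 1 FPKM in both genotypes of a medium, or with a library listed at 0, have no point for that medium. Slc43a2 lies beyond 2-fold in both media, at 1.78 and 1.60, and Slc6a9 lies on opposite sides, at 0.74 and −1.09.

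Among the heavy chains, Slc3a2, which carries 6 of the Slc7 light chains, was 144 FPKM in TβRII–/– against 148 FPKM in TβRII fl/fl serum-starved cells. With serum it was 78.5 FPKM in TβRII–/– against 105 FPKM in TβRII fl/fl cells. The 2 genotypes were alike after starvation, and TβRII–/– cells stood lower with serum, at a log2 ratio of −0.42.

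Of the 6 light chains of Slc3a2, 4 reached 1 FPKM. Slc7a5, which exchanges leucine and other large neutral amino acids, was 135 FPKM in TβRII–/– against 118 FPKM in TβRII fl/fl serum-starved cells, and 62.7 FPKM in TβRII–/– against 47.7 FPKM in TβRII fl/fl serum-replete cells. The deposited Slc7a5 locus spans 4435 kb of chromosome 8 and overlaps 174 other loci, whereas the RefSeq gene spans 26.5 kb from 121881146 to 121907686, so its value may hold reads of other genes. Slc7a6, which exchanges basic for neutral amino acids, was lower in TβRII–/– cells in both media by less than 2-fold, at 16.7 FPKM in TβRII–/– against 30.5 FPKM in TβRII fl/fl serum-starved cells, and 24.8 FPKM in TβRII–/– against 43.0 FPKM in TβRII fl/fl serum-replete cells. Its close relative Slc7a7, which lets arginine and lysine out of epithelial cells, was 6.69 FPKM in TβRII–/– against 4.26 FPKM in TβRII fl/fl serum-starved cells, and 1.98 FPKM in TβRII–/– against 3.54 FPKM in TβRII fl/fl serum-replete cells. The 2 genotypes were thus ordered one way in serum-starved and the other way in serum-replete medium, with log2 ratios of 0.55 serum-starved and −0.61 serum-replete. Slc7a11, which takes up cystine in exchange for glutamate and carries the paired motif shown above, was 6.81 FPKM in TβRII–/– against 5.33 FPKM in TβRII fl/fl serum-starved cells, and 0.543 FPKM in TβRII–/– against 0.606 FPKM in TβRII fl/fl serum-replete cells. It differed little by genotype in either medium. Slc7a12, grouped here with the light chain of Slc3a1 and its relatives, was listed at 0 in TβRII–/– cells in both media, against 0.834 FPKM serum-starved and 2.32 FPKM serum-replete in TβRII fl/fl cells, and was called lower in serum-replete medium.

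The cationic amino acid carriers bring in arginine, lysine and ornithine. Slc7a1, which most cells use, stood higher in TβRII–/– cells in both media without a call, at 79.8 FPKM in TβRII–/– against 46.5 FPKM in TβRII fl/fl serum-starved cells, and 45.8 FPKM in TβRII–/– against 22.7 FPKM in TβRII fl/fl serum-replete cells. Its log2 ratios were 0.77 serum-starved and 0.98 serum-replete, and with the shift of all loci taken away it came to 1.01 serum-replete, past the call. Slc7a3, a relative best known from neurons, was 3.27 FPKM in TβRII–/– against 0.720 FPKM in TβRII fl/fl serum-starved cells, a log2 ratio of 1.31, and 0.157 FPKM in TβRII–/– against 0.0824 FPKM in TβRII fl/fl serum-replete cells. Only the serum-starved TβRII–/– library passed 1 FPKM for this gene. Slc7a4, a relative for which transport is not established, was 0.151 FPKM in TβRII–/– against 0.689 FPKM in TβRII fl/fl serum-starved cells, and 0.0168 FPKM in TβRII–/– against 1.04 FPKM in TβRII fl/fl serum-replete cells, where it was called lower at −1.01. With the ratios centred on the median of all loci it was −0.98, short of a call.

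The facilitative carriers of Slc43 let amino acids pass down their gradient. Slc43a2 lies on chromosome 11 from 75531694 to 75577575 in mm10. It was 15.2 FPKM in TβRII–/– against 3.72 FPKM in TβRII fl/fl serum-starved cells, a 4.09-fold difference, and 13.8 FPKM in TβRII–/– against 3.89 FPKM in TβRII fl/fl serum-replete cells, a 3.55-fold difference. Both TβRII–/– libraries therefore stood above both TβRII fl/fl libraries, and it was the only transporter called higher in both media. Slc43a3, known as a carrier of purine bases, was 0.566 FPKM serum-starved and 4.02 FPKM serum-replete in TβRII–/– cells, while both TβRII fl/fl libraries listed it at 0. It was called higher in serum-replete medium, and no ratio is given for it.

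The Slc1 family divides into glutamate carriers, all under 1 FPKM here, and a pair of neutral amino acid exchangers, both expressed. Slc1a5, the main exchanger of glutamine, was 112 FPKM in TβRII–/– against 61.6 FPKM in TβRII fl/fl serum-starved cells, and 37.7 FPKM in TβRII–/– against 38.7 FPKM in TβRII fl/fl serum-replete cells. Slc1a4, which exchanges alanine, serine and cysteine, was 29.2 FPKM in TβRII–/– against 16.9 FPKM in TβRII fl/fl serum-starved cells, and 4.64 FPKM in TβRII–/– against 4.50 FPKM in TβRII fl/fl serum-replete cells. For both genes the serum-starved TβRII–/– library was highest and the 2 serum-replete libraries lay close together. Their log2 genotype ratios were 0.85 and 0.75 after starvation, which falls short of a call, and −0.039 and 0.034 with serum.

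In Slc38, the plasma membrane carrier Slc38a2, which takes up alanine, serine and glutamine with sodium, was 151 FPKM in TβRII–/– against 133 FPKM in TβRII fl/fl serum-starved cells, and 78.1 FPKM in TβRII–/– against 84.9 FPKM in TβRII fl/fl serum-replete cells. Slc38a6 was 52.4 FPKM in TβRII–/– against 27.9 FPKM in TβRII fl/fl serum-starved cells, and 19.5 FPKM in TβRII–/– against 22.2 FPKM in TβRII fl/fl serum-replete cells. Slc38a10 was 40.5 FPKM in TβRII–/– against 47.0 FPKM in TβRII fl/fl serum-starved cells, and 32.7 FPKM in TβRII–/– against 45.8 FPKM in TβRII fl/fl serum-replete cells. Slc38a6 thus had the pattern of Slc1a5, with the serum-starved TβRII–/– library highest, and Slc38a10 was lowest in the serum-replete TβRII–/– library. The lysosomal carrier Slc38a7, which exports glutamine and asparagine from lysosomes, was 15.1 FPKM in TβRII–/– against 16.1 FPKM in TβRII fl/fl serum-starved cells, and 4.37 FPKM in TβRII–/– against 8.10 FPKM in TβRII fl/fl serum-replete cells. Slc38a9, the lysosomal arginine sensor of mTORC1, was 1.09 FPKM in TβRII–/– against 0.868 FPKM in TβRII fl/fl serum-starved cells, and 0.558 FPKM in TβRII–/– against 0.604 FPKM in TβRII fl/fl serum-replete cells. No Slc38 gene was called between the genotypes in either medium.

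The proton-coupled carriers of Slc36 sit largely on lysosomes and endosomes. Slc36a4 was 17.5 FPKM in TβRII–/– against 8.56 FPKM in TβRII fl/fl serum-starved cells, and 13.9 FPKM in TβRII–/– against 8.09 FPKM in TβRII fl/fl serum-replete cells. Slc36a1 was 7.22 FPKM in TβRII–/– against 6.33 FPKM in TβRII fl/fl serum-starved cells, and 4.72 FPKM in each genotype with serum. Slc36a4 was therefore higher in both TβRII–/– libraries, with log2 ratios of 0.95 serum-starved and 0.71 serum-replete, and Slc36a1 hardly differed.

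In Slc6, the osmolyte and creatine carriers stood mostly lower in TβRII–/– cells. Slc6a6, which takes up taurine, was 139 FPKM in TβRII–/– against 115 FPKM in TβRII fl/fl serum-starved cells, and 68.2 FPKM in TβRII–/– against 116 FPKM in TβRII fl/fl serum-replete cells. The serum-replete TβRII–/– library stood apart below the other 3. Slc6a8, which takes up creatine, was 58.0 FPKM in TβRII–/– against 86.8 FPKM in TβRII fl/fl serum-starved cells, and 48.5 FPKM in TβRII–/– against 77.0 FPKM in TβRII fl/fl serum-replete cells, with log2 ratios of −0.57 serum-starved and −0.66 serum-replete. Slc6a12, which takes up betaine and is known to rise in hypertonic medium, was 0.0396 FPKM in TβRII–/– against 1.32 FPKM in TβRII fl/fl serum-starved cells, a log2 ratio of −1.16. With serum it was listed at 0 in TβRII–/– cells and was 2.07 FPKM in TβRII fl/fl cells. Both TβRII–/– libraries were close to 0, and it was the only transporter called lower in both media.

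Among the other Slc6 members, Slc6a9, which takes up glycine, lies on chromosome 4 from 117834506 to 117883487 in mm10. It was 68.2 FPKM in TβRII–/– against 40.4 FPKM in TβRII fl/fl serum-starved cells, and 3.16 FPKM in TβRII–/– against 7.85 FPKM in TβRII fl/fl serum-replete cells. TβRII–/– cells were thus the higher genotype after starvation, at a log2 ratio of 0.74, and the lower one with serum, at −1.09, where the gene was called. Its locus overlaps that of B4galt2 and Ccdc24. Of the 26 transporters that reached 1 FPKM, 4 overlap another locus at 1 FPKM or more (Slc6a9, Slc7a5, Slc7a7 and Slc38a10), and whether reads were counted by strand is not given in the sources used here. Slc6a17, known from synaptic vesicles in brain as a carrier of neutral amino acids, was 1.85 FPKM in TβRII–/– against 1.14 FPKM in TβRII fl/fl serum-starved cells, and 5.70 FPKM in TβRII–/– against 0.968 FPKM in TβRII fl/fl serum-replete cells. The serum-replete TβRII–/– library was the high one, with a log2 ratio of 1.77. Slc6a19, the apical neutral amino acid carrier of proximal tubule and gut, was 0.820 FPKM in TβRII–/– against 1.57 FPKM in TβRII fl/fl serum-starved cells, and 1.20 FPKM in TβRII–/– against 1.33 FPKM in TβRII fl/fl serum-replete cells.

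The same libraries were set side by side by medium within each genotype. More transporters stood higher after serum starvation than between genotypes, and carriers of glycine, serine, cystine and leucine were among them in both genotypes. The leucine carrier is Slc7a5, whose deposited locus overlaps 174 other loci and may hold reads of other genes. In TβRII–/– cells 10 of 23 transporters were called higher after starvation (43.5%, against 8.02% of 12327 loci) and 2 were called lower (8.70%, against 5.92%), in all 12 of 23 (52.2%, against 13.9%). In TβRII fl/fl cells 5 of 23 were called higher (21.7%, against 2.76% of 12583 loci) and 0 were called lower, against 3.77%, which makes 5 of 23 called in all, against 6.52%. The median log2 ratio of the members was 0.87 in TβRII–/– and 0.21 in TβRII fl/fl cells, against 0.13 in TβRII–/– and 0.021 in TβRII fl/fl cells over all loci. The media were normalized separately, which bears on every one of these ratios. With the shift of all loci taken away, 8 transporters in TβRII–/– and 4 in TβRII fl/fl cells were called higher, since Slc6a6 and Slc7a5 came to 0.89 and 0.96 in TβRII–/– cells and Slc7a1 to 0.98 in TβRII fl/fl cells.

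**Figure D3:**
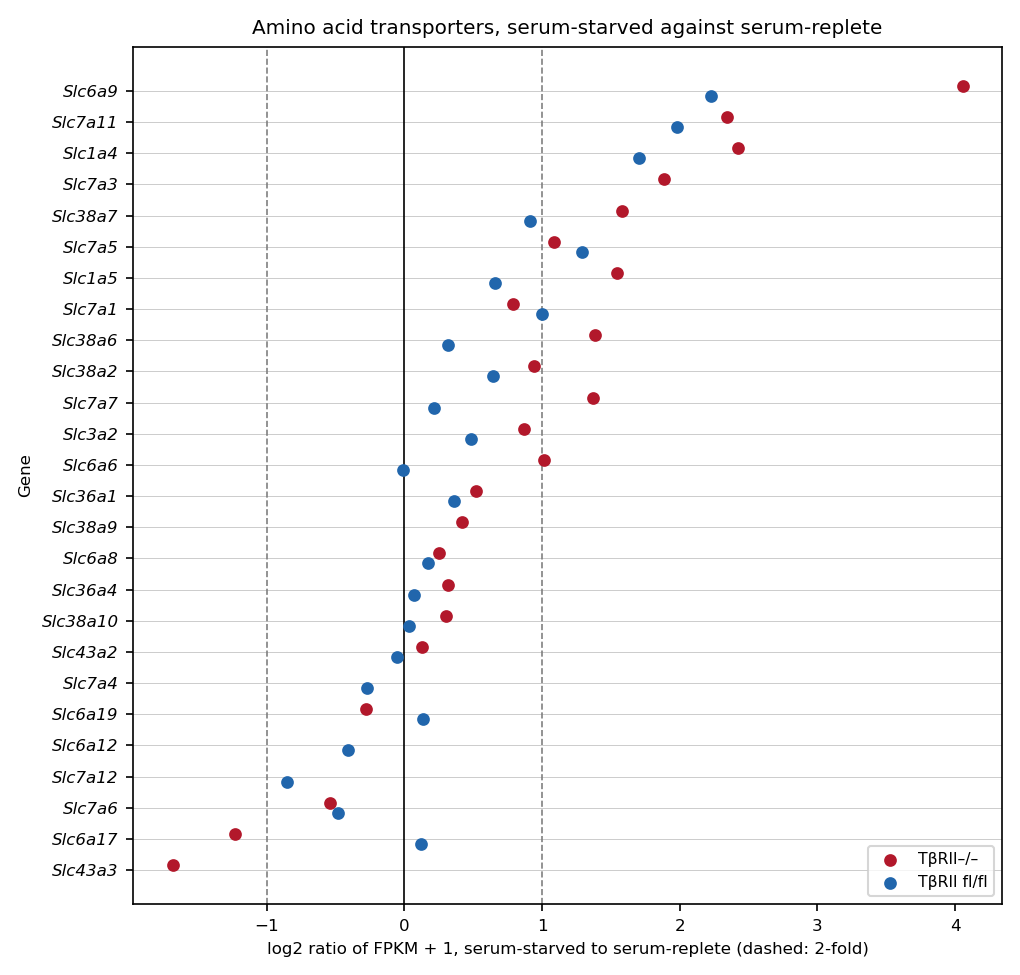
Serum ratio of each transporter in both genotypes. The horizontal axis is the log2 ratio of FPKM + 1 in serum-starved to serum-replete medium, each point compares 1 library with 1 library in TβRII–/– (red) or TβRII fl/fl (blue) cells, and dashed lines mark 2-fold. A genotype with under 1 FPKM in both media, or with a library at 0, has no point for that gene. Slc6a9 lies farthest to the right, at 4.05 in TβRII–/– and 2.23 in TβRII fl/fl cells.

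Called higher after starvation in both genotypes were 4 transporters. The glycine carrier Slc6a9 had log2 ratios of 4.05 in TβRII–/– and 2.23 in TβRII fl/fl cells. Slc1a4 had 2.42 in TβRII–/– and 1.70 in TβRII fl/fl cells, Slc7a11 had 2.34 in TβRII–/– and 1.98 in TβRII fl/fl cells, and Slc7a5 had 1.09 in TβRII–/– and 1.29 in TβRII fl/fl cells. Slc1a4 and Slc7a11 are the genes whose promoters are printed above. They were chosen for their difference between media, so their place here says nothing further about the motif. Slc6a9 had a promoter window without the motif, and Slc7a5 had no window at hand. Slc7a1 was called in TβRII fl/fl cells at 1.002, on the edge of the call, and reached 0.79 in TβRII–/– cells.

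Another 6 transporters were called higher in TβRII–/– cells but not in TβRII fl/fl cells. Slc7a3 had a log2 ratio of 1.88 in TβRII–/– cells and was under 1 FPKM in both media in TβRII fl/fl cells. Slc38a7 had 1.58 in TβRII–/– and 0.91 in TβRII fl/fl cells, Slc1a5 had 1.54 in TβRII–/– and 0.66 in TβRII fl/fl cells, and Slc38a6 had 1.38 in TβRII–/– and 0.32 in TβRII fl/fl cells. Slc7a7 had 1.37 in TβRII–/– and 0.21 in TβRII fl/fl cells, and Slc6a6 had 1.02 in TβRII–/– and −0.011 in TβRII fl/fl cells. Whether the genotypes differ in these responses was not tested. The ratios of Slc3a2 were 0.87 in TβRII–/– and 0.49 in TβRII fl/fl cells, and those of Slc38a2 were 0.94 in TβRII–/– and 0.64 in TβRII fl/fl cells, so both stood higher after starvation in both genotypes by less than 2-fold.

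Transporters called lower after starvation were Slc43a3 and Slc6a17, both in TβRII–/– cells. Slc43a3 had a log2 ratio of −1.68 in TβRII–/– cells, and Slc6a17 had −1.23 in TβRII–/– and 0.12 in TβRII fl/fl cells. Slc7a6 had ratios of −0.54 in TβRII–/– and −0.48 in TβRII fl/fl cells and was the one Slc3a2 light chain that stood lower after starvation. Slc43a2, called between genotypes in both media, hardly differed by medium, with 0.13 in TβRII–/– and −0.052 in TβRII fl/fl cells.

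Genes of amino acid response and metabolism were described from 9 lists, beside the transporters. Their counts between genotypes are small and stand beside shares over all loci of 8.02% higher and 6.64% lower serum-starved, and 7.0% higher and 11.1% lower serum-replete. The 26 genes of the Atf4 amino acid response all reached 1 FPKM, and 19 in TβRII–/– and 18 in TβRII fl/fl cells were called higher after starvation, against 8.02% and 2.76% of all loci, with 0 called lower and median log2 ratios of 1.87 in TβRII–/– and 1.25 in TβRII fl/fl cells. Named after their values were seen, Atf4 was 474 FPKM in TβRII–/– against 306 FPKM in TβRII fl/fl serum-starved cells and 173 FPKM in TβRII–/– against 130.2 FPKM in TβRII fl/fl serum-replete cells, and Trib3, a pseudokinase that Atf4 raises, was 69.5 FPKM in TβRII–/– against 45.1 FPKM in TβRII fl/fl serum-starved cells and 2.11 FPKM in TβRII–/– against 2.79 FPKM in TβRII fl/fl serum-replete cells. The motif printed above occurred in 8 of the 24 genes of this list with a window (33.3%, against 4.51% of all genes with a window). The list was drawn up as genes of the Atf4 response, so this share gives no separate support. Between genotypes the list had 3 genes called higher and 1 lower serum-starved, and 1 higher and 3 lower serum-replete. These counts are near the shares of all loci. The median log2 genotype ratio of the list was 0.62 serum-starved and 0.043 serum-replete, against 0.028 and −0.029 over all loci. With a call at 1.5-fold, 15 of 26 were higher serum-starved, against 16.4% of all loci. Psat1, an enzyme of serine synthesis, was called higher in TβRII–/– cells in both media, at 222 FPKM in TβRII–/– against 95.9 FPKM in TβRII fl/fl serum-starved cells and at 179.8 FPKM in TβRII–/– against 36.7 FPKM in TβRII fl/fl serum-replete cells. Stc2, a secreted glycoprotein, was called lower in both media, with log2 ratios of −1.01 serum-starved and −2.61 serum-replete. After starvation, Atf3 and Chac1, which cleaves glutathione, were called higher, at 1.27 and 1.04. With serum, Ddit4, an inhibitor of mTORC1, was called lower, at −1.73.

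The 20 aminoacyl-tRNA synthetases, which load tRNAs, had 0 calls between genotypes in either medium, with median log2 ratios of 0.26 serum-starved and 0.31 serum-replete. Their largest ratios were −0.61 of Kars serum-starved and 0.60 of Mars serum-replete. The motif occurred in 5 of the 13 with a window (38.5%, against 4.51% of all genes with a window). After starvation 1 of 20 was called higher in TβRII–/– and 2 of 20 in TβRII fl/fl cells, against 8.02% and 2.76% of all loci. Of 30 genes for amino acid sensing by mTORC1, 1 was called higher and 1 lower serum-starved, and 0 higher and 3 lower serum-replete. Rragb, a Rag GTPase, was lower in both media, at 2.97 FPKM in TβRII–/– against 8.38 FPKM in TβRII fl/fl serum-starved cells and at 2.44 FPKM in TβRII–/– against 6.60 FPKM in TβRII fl/fl serum-replete cells. Its partner Rragc was higher serum-starved, at 134 FPKM in TβRII–/– against 63.2 FPKM in TβRII fl/fl cells. The log2 ratio of Rragc was 1.07, and it came to 0.96, without a call, when scaled on the upper quartile. Sesn2, a leucine sensor, had log2 ratios of 0.98 serum-starved and 0.39 serum-replete. Its relative Sesn1 was called lower serum-replete, at −1.39, and so was Gatsl2, at −1.11.

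**Figure D4:**
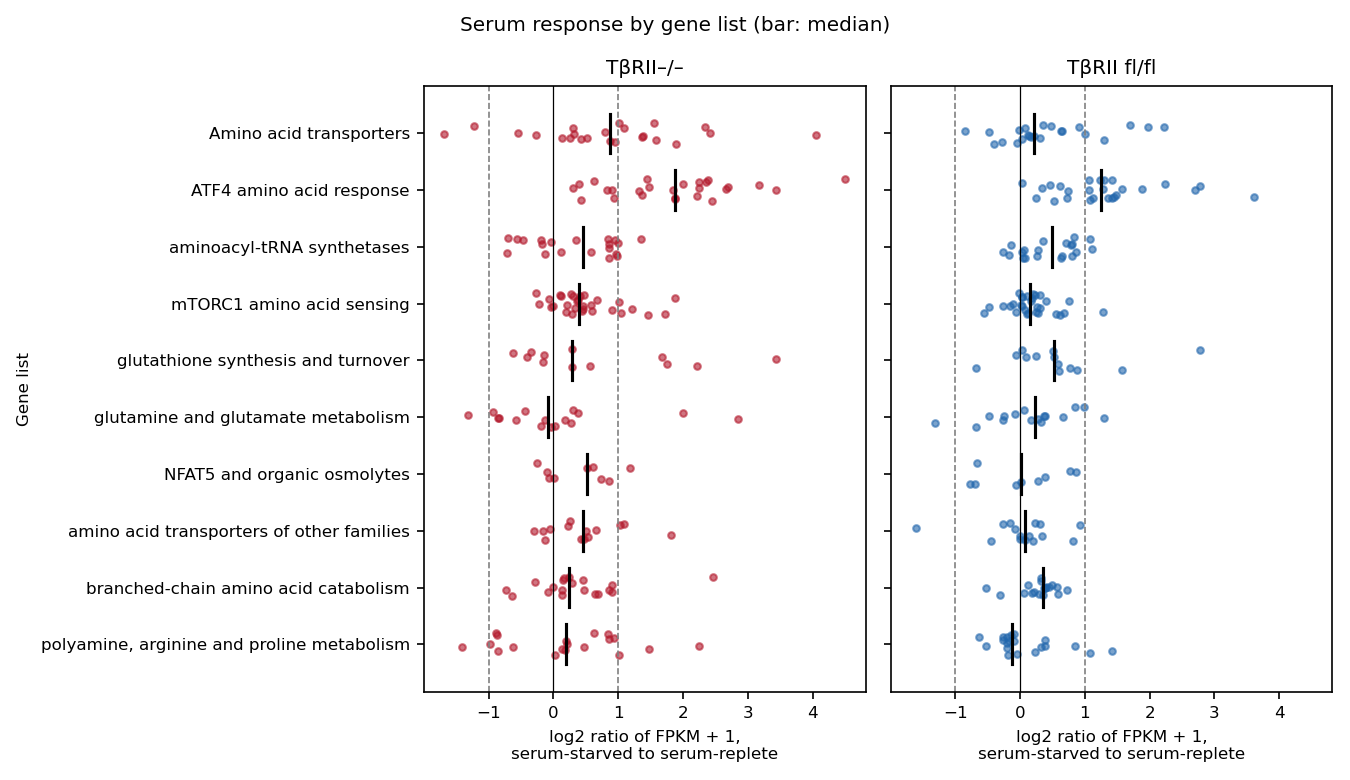
Serum response of the transporters and of 9 gene lists. The horizontal axes are the log2 ratio of FPKM + 1 in serum-starved to serum-replete medium, in TβRII–/– (left) and TβRII fl/fl (right) cells, each point is 1 gene compared between 1 library and 1 library, bars are medians and dashed lines mark 2-fold. The Atf4 list has the highest medians, 1.87 and 1.25, and the transporters have 0.87 and 0.21.

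Genes that use what the transporters bring in were also compared between genotypes, where 8.02% of all loci were called higher and 6.64% lower serum-starved, and 7.0% higher and 11.1% lower serum-replete. For Slc7a11, the cystine carrier, the users are the glutathione genes. Of these, 2 of 13 were called higher and 3 lower serum-starved, and 1 higher and 4 lower serum-replete. Their median log2 genotype ratio was −0.69 serum-starved and −0.32 serum-replete, against 0.028 and −0.029 over all loci. Gclc, the catalytic subunit of the first step of glutathione synthesis, was 20.7 FPKM in TβRII–/– against 68.8 FPKM in TβRII fl/fl serum-starved cells, and 23.1 FPKM in TβRII–/– against 47.9 FPKM in TβRII fl/fl serum-replete cells. Cbs, which makes cystathionine, had log2 ratios of −2.16 serum-starved and −1.96 serum-replete, and Ggt1, which cleaves extracellular glutathione and also stands among the proximal tubule markers, had −5.49 and −4.91. Oplah, which turns oxoproline into glutamate, was higher in both media, at 2.82 and 1.59. For the osmolyte carriers, the locus of Slc5a3, which takes up myo-inositol, was called lower in both media, like Slc6a12. It was 120.5 FPKM in TβRII–/– against 279 FPKM in TβRII fl/fl serum-starved cells, and 72.2 FPKM in TβRII–/– against 153 FPKM in TβRII fl/fl serum-replete cells. This deposited locus holds 2 gene symbols, so its values cannot be assigned to Slc5a3 alone. The osmolyte list had 0 genes higher and 1 lower of 9 serum-starved, and 0 higher and 2 lower serum-replete, and Nfat5, the transcription factor of the tonicity response, had −0.29 and −0.38.

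For the leucine carriers Slc7a5 and Slc43a2, the users are genes of branched-chain amino acid catabolism, of which 0 of 19 were called higher and 1 lower serum-starved, and 1 higher and 2 lower serum-replete. Bcat1, the cytosolic aminotransferase, was 20.4 FPKM in TβRII–/– against 57.8 FPKM in TβRII fl/fl serum-starved cells, and 2.89 FPKM in TβRII–/– against 71.9 FPKM in TβRII fl/fl serum-replete cells. For the arginine carriers, the polyamine, arginine and proline list had 1 gene called higher and 2 lower of 20 serum-starved, and 3 higher and 3 lower serum-replete. Ass1, which makes argininosuccinate, was 6.81 FPKM in TβRII–/– against 33.5 FPKM in TβRII fl/fl serum-starved cells, and 6.14 FPKM in TβRII–/– against 26.5 FPKM in TβRII fl/fl serum-replete cells. Arg2, the mitochondrial arginase, was listed at 0 in TβRII–/– against 2.43 FPKM in TβRII fl/fl serum-starved cells, and was 0.0550 FPKM in TβRII–/– against 2.88 FPKM in TβRII fl/fl serum-replete cells. Oaz1, which restrains polyamine synthesis, was higher serum-starved, at 1.40. Of 16 genes for glutamine and glutamate metabolism 0 were called serum-starved, where Asns, asparagine synthetase, had 0.92, and serum-replete Prodh was higher at 1.79 and Gpt2 lower at −1.83.

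Among amino acid transporters of other families, Slc16a10, a facilitative carrier of aromatic amino acids, was 0.970 FPKM in TβRII–/– against 5.74 FPKM in TβRII fl/fl serum-starved cells, and 1.05 FPKM in TβRII–/– against 2.83 FPKM in TβRII fl/fl serum-replete cells. Ctns, the lysosomal cystine exporter, had log2 ratios of 0.24 serum-starved and −0.64 serum-replete.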

How the data were processed

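RNA was extracted with the Qiagen RNeasy kit and a DNase step and sequenced on a HiSeq instrument per the labels. Alignment with TopHat2 to mm10 and use of Cufflinks and Cuffdiff are named in the submitters' processing notes. Tool versions: not given in the sources used here. For each locus the authors deposited FPKM values from Cuffdiff, normalized separately for each medium. The deposited tables also hold the authors' fold changes, p-values and q-values, which were not used, nor were their lists of top hits and functional categories.

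Genotype and medium came from the sample labels. For each transporter and list, log2 ratios of FPKM were computed with a pseudocount of 1, over loci with at least 1 FPKM in either library, and called at 2-fold, with Python 3.11.15, numpy 2.4.6 and pandas 2.3.3. With 1 library per condition, no p-value was computed. Pseudocounts of 0.1 and 0.5, a filter of 5 FPKM or none, calls at 1.5-fold, centring on the median, scaling on the upper quartile and loci with a single symbol were tried as alternatives. Between 69.1% and 75.3% of low values lay within 10% of a whole step of 1 read, too few to recover reads. The calculation was tested on simulated data.

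The members and lists were chosen with earlier results of these data known, and the comparison of media was added after values were seen. Members were named, except that values of a few genes, and the counts of calls in the list of transporters of other families, are not reported here. Pathway genes could be named if called one way in both media. They could also be named if among the 3 largest ratios of a list and medium with at least 5 FPKM in either library. Not every gene that met this rule is named, and some of those left out were called in 1 medium. All 242 listed symbols were found, 1 under an older name. Promoter sequences are from RefSeq, and no protein sequence was used.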

Additional observations from a re-analysis of the deposited data

Results flagged for a closer look

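Slc6a9, the glycine carrier, had genotype ratios of opposite sign in the 2 media, 0.74 on the log2 scale in serum-starved and −1.09 in serum-replete cells, a difference of 1.83. Slc6a6, the taurine carrier, had serum ratios of 1.02 in TβRII–/– and −0.011 in TβRII fl/fl cells, a difference of 1.03. Slc6a17 had serum ratios of −1.23 in TβRII–/– and 0.12 in TβRII fl/fl cells, a difference of −1.35. Each of these compares 1 library with 1 library in each arm, and the difference was not tested.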

How the results depend on the processing

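No paired analysis was possible because each condition has 1 library and the labels give no replicate numbers. With a call at 1.5-fold in place of 2-fold, the transporters called between genotypes were 8 higher and 2 lower serum-starved (16.4% and 13.7% of all loci), and 5 higher and 9 lower serum-replete (15.1% and 20.8%), and the serum comparison in TβRII fl/fl cells gave 8 higher and 1 lower (7.04% and 8.77%). With a filter of 5 FPKM, the genotype calls were 1 higher and 0 lower serum-starved and 2 higher and 1 lower serum-replete, 1 transporter was lower by serum in TβRII–/– cells, and the median serum ratio in TβRII fl/fl cells was 0.56. With no filter, the median genotype ratio serum-starved was −0.011, and the median serum ratios were 0.10 in TβRII–/– and 0.072 in TβRII fl/fl cells. Scaling on the upper quartile gave a serum-starved genotype median of 0.15, and centring gave a serum median of 0.73 in TβRII–/– cells. Slc7a1 serum-replete came to 1.01 with centring and with a pseudocount of 0.1, and Slc36a4 serum-starved to 1.02 with that pseudocount, and both were then called higher. Pseudocounts of 0.1 and of 0.5 each gave 1 transporter lower by serum in TβRII fl/fl cells. For the transporters called, 203 of 208 values under these alternatives were still called, 5 were not and 0 reversed, and Slc6a6 serum-starved against serum-replete in TβRII–/– cells was 0.95 on the upper quartile scale. Of 252 list counts, 212 stayed within 1.5 times. Genes near 1 FPKM, such as Slc7a4, Slc7a12 and Slc6a12, rest on few reads.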
